A study of Homo sapiens with 9 samples.

Results

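The genes described here drive or restrain the passage of a cell from G1 into S phase. They are the D-type cyclins CCND1, CCND2 and CCND3, the E-type cyclins CCNE1 and CCNE2, the cyclin-dependent kinases CDK2, CDK4 and CDK6, the kinase inhibitor CDKN1B (p27) and the retinoblastoma gene RB1. They were chosen by name: every probe set that the platform annotation assigns to one of these symbols was taken, which gave 26 of the 54675 probe sets of the array, for all 10 genes. A probe set is a group of short oligonucleotides that reads 1 stretch of transcript, and its level is given as a log2 value. Total RNA of 3 human breast cancer lines, all GFP positive and grown in McCoy's 5A medium with serum, was hybridized to 3 arrays a line, 9 in all. MDA-MB-231 (MDA-MB-231/GFP/Neo) is ER negative and resistant to G418, and was used as 1 clone. ZR-75-1 (ZR-75-1/GFP/puro) is ER positive, and its puromycin resistant cells were pooled. B6TC is estrogen-independent and, by the labels, a fusion of those lines. It was established from a mouse tumor of B6 cells, themselves recovered from the bone marrow of a mouse that carried both parental lines. The RNA came from near confluent cultures. By their labels the arrays are technical replicates, and the methods name triplicate labeling and hybridization. The tests below therefore measure the spread between labelings and hybridizations and not between cultures.

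In G1, the D-type cyclins bind CDK4 or CDK6 and begin the phosphorylation of the RB1 protein, which holds E2F transcription factors inactive. Released E2F raises the E-type cyclins, and cyclin E with CDK2 completes the phosphorylation and lets DNA replication begin. CDKN1B binds and blocks cyclin E with CDK2. In luminal breast cancer CCND1 is a well known target of estrogen signaling. Much of this control acts on the proteins, by phosphorylation and degradation, which an array of RNA does not read.

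The 6 luminal markers were all lower in MDA-MB-231 than in ZR-75-1 by limma, and of 6 mesenchymal markers 5 were higher and 1, the fibronectin gene FN1, was lower, at −0.12. At the ESR1 probe set that differed most, the estrogen receptor gene had a mean log2 level of 10.16 in ZR-75-1, against 3.31 in MDA-MB-231 and 3.76 in B6TC. VIM, the gene of the mesenchymal filament protein vimentin, had a mean of 6.02 in ZR-75-1 and of 13.68 and 13.62 in the other lines. Of 4 leukocyte markers with a probe set of their own, none reached a mean of 6. Between 33.9% and 34.8% of the probe sets of an array were at 6 or more. The B6TC array of replicate 3 was higher at luminal markers, with 9.08 at TFF1, a secreted luminal peptide, against 5.04 and 4.98, 9.54 at GATA3, a luminal transcription factor gene, against 8.19 and 8.22, 8.29 at XBP1, a secretory pathway factor gene, against 7.35 and 7.55, and 4.26 at ESR1 against 3.50 and 3.53. Its deviation from the mean of its partners reached 4.07 over all tested probe sets, and was between −0.09 and 0.10 at the tested probe sets of the G1 genes. The excess of the 3′ over the 5′ control probe set of ACTB was 0.73 in ZR-75-1, 0.32 in MDA-MB-231 and 0.67 in B6TC, and poly-A spike-ins had means of 7.54, 5.68 and 9.08 in that order. The part of these unequal controls in the results below was not tested.

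CDK6, CCND3, CDKN1B and CDK4 differed between the parental lines in opposite directions, CDK6 and CCND3 being higher in MDA-MB-231 and CDKN1B and CDK4 in ZR-75-1. The bases before a listed transcription start of each are shown for reference. Each line gives the 250 bases before a start listed by RefSeq in GRCh38.p14, 5′ to 3′ on the strand of the gene. Capitals mark the GC box, the letters GGGCGG or their reverse complement, a sequence bound by SP1 family factors.
CDK6, chr7:92836574-92836823, minus strand: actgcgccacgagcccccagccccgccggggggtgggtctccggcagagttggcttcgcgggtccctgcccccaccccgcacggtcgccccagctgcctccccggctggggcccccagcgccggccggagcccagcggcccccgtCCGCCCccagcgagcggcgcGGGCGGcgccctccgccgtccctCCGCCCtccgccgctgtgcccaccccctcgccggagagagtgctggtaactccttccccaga
CCND3, chr6:42048689-42048938, minus strand: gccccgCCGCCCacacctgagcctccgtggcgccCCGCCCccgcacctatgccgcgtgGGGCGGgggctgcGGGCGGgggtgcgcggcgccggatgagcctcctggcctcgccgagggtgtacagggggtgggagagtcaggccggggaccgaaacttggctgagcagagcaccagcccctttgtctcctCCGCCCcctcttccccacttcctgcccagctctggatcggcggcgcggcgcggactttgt
CDKN1B, chr12:12717118-12717367, plus strand: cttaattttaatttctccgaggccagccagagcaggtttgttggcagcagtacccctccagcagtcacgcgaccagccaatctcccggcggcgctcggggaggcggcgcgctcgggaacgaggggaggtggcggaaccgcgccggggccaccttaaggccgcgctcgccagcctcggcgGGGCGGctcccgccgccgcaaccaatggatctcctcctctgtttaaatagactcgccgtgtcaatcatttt
CDK4, chr12:57752311-57752560, minus strand: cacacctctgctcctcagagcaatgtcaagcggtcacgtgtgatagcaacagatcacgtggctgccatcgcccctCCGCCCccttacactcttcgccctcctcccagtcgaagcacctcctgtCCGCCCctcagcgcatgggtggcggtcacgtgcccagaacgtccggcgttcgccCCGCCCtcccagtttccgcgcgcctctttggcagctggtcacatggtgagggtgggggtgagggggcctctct
A window was at hand for 6 of the 10 genes, and the 5 that begin within 10000 bases of the 5′ end of their gene were searched: CCND3, CCNE1, CDK4, CDK6 and CDKN1B. The RB1 window begins farther inside its gene and was not used. There was no entry for CCND1, CCND2, CCNE2 and CDK2. The GC box was present in all 5 windows, with 7 places in CCNE1, 5 in CCND3, 3 each in CDK6 and CDK4 and 1 in CDKN1B, against 42.6% of the 26555 promoter windows of the same length. On either strand, the E2F motif (TTTCCCGC, TTTCGCGC, TTTGCCGC or TTTGGCGC) was in none of the 5 and in 2.8% of all windows, the cyclic AMP response element TGACGTCA in none and 1.78%, and the AP-1 motif TGANTCA in none and 6.54%. No match overlapped another motif, as the GC box alone matched in these 5. Other starts of these genes were not searched, and which start these lines use was not tested, so a window need not be that of the main transcript. A match is a description of the letters and not of a bound site.

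Of the 26 probe sets, 15 probe sets of 9 genes passed the filter, a log2 value of 6 or more on at least 3 of the 9 arrays. CCND2 was the member that did not pass. Its 4 probe sets lay between 2.98 and 4.66 on every array, near background in all 3 lines, and it was not tested. At the 15 tested probe sets the SD of the 3 arrays ran from 0.013 to 0.3 with a median of 0.053. Lines were compared with limma over all tested probe sets, and a difference was called where its p, adjusted by Benjamini and Hochberg, was at most 0.05. Counts of genes use the probe set of each gene with the highest mean.

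**Figure D1:**
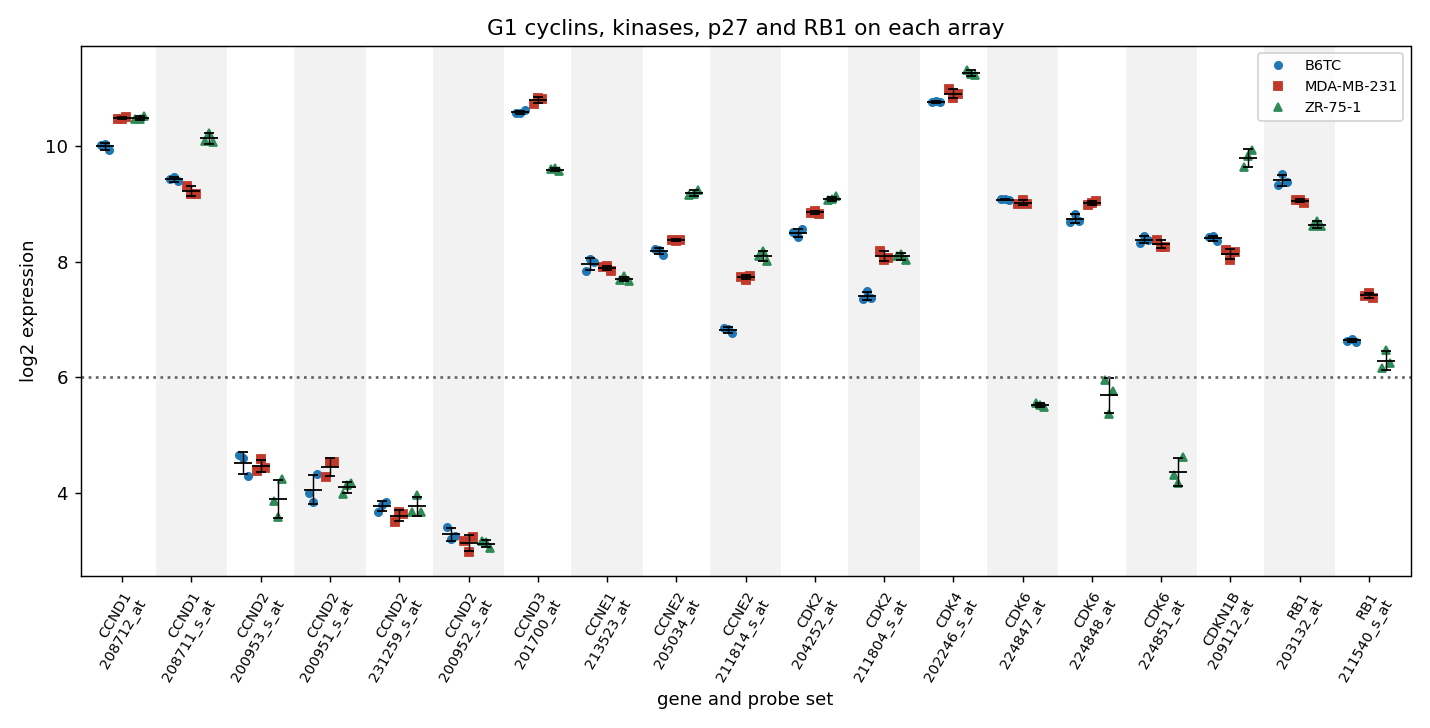
Log2 expression (y axis) at the tested probe sets of the G1 genes and the 4 probe sets of CCND2 (x axis). Each point is 1 array, with ZR-75-1 as green triangles, MDA-MB-231 as red squares and B6TC as blue circles, black marks give mean and SD (n = 3 arrays), and the dotted line is the filter level of 6. All CCND2 arrays and the ZR-75-1 arrays of CDK6 lie below it.

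CDK6, a partner of the D-type cyclins, separated the lines most. At the probe set 224847_at its log2 level was 5.56, 5.53 and 5.49 in ZR-75-1, 9.0, 9.07 and 9.0 in MDA-MB-231 and 9.08, 9.08 and 9.06 in B6TC. B6TC and MDA-MB-231 overlapped, and every ZR-75-1 array lay far below both. CDK6 was 11.7-fold above ZR-75-1 in B6TC, 3.55 on the log2 scale (SE 0.042, limma adjusted p = 7.98e-13), and 11.3-fold above it in MDA-MB-231. Between B6TC and MDA-MB-231 it differed by 0.05 (95% interval −0.05 to 0.14, limma adjusted p = 0.339). Robust regression gave 0.056 there, which passed (limma adjusted p = 0.0404, and 0.0404 to 0.65 over the alternatives). CDK6 passed the filter only through the arrays of B6TC and MDA-MB-231, and the ZR-75-1 values lie near background, where a log2 difference may understate the change.
The other tested probe sets of CDK6 also placed ZR-75-1 far below. At 224851_at the means were 8.30 ± 0.07 (SD, n = 3 arrays) in MDA-MB-231, 4.37 ± 0.24 in ZR-75-1 and 8.38 ± 0.057 in B6TC. At 224848_at they were 9.01 ± 0.03, 5.69 ± 0.3 and 8.74 ± 0.076, and there the B6TC arrays lay below those of MDA-MB-231 without overlap, at a difference of −0.26 that did not pass limma (adjusted p = 0.079). The other 4 probe sets of CDK6 did not pass the filter. At 3 of them the ZR-75-1 arrays lay below all B6TC arrays, and over the 4 the mean of B6TC exceeded that of ZR-75-1 by 0.21 to 2.02.

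CDK4, the other partner of the D-type cyclins, is read by a single probe set, 202246_s_at. Its log2 level was 11.31, 11.24 and 11.22 in ZR-75-1, 10.98, 10.82 and 10.89 in MDA-MB-231 and 10.75, 10.78 and 10.76 in B6TC. The 3 lines did not overlap, and ZR-75-1 was highest. B6TC was 1.41-fold below ZR-75-1, at −0.50 on the log2 scale (SE 0.051, limma adjusted p = 4.83e-06). Its difference of −0.14 from MDA-MB-231 passed narrowly (limma adjusted p = 0.0354, and 0.00193 to 0.153 over 17 alternatives) and was lost in 7 of these, among them leaving out any B6TC array or MDA-MB-231 replicate 1 or 3.

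CCND3, a D-type cyclin, favored MDA-MB-231 and B6TC, as CDK6 did. At 201700_at it was measured at 9.60, 9.61 and 9.56 in ZR-75-1, 10.72, 10.83 and 10.81 in MDA-MB-231 and 10.57, 10.57 and 10.62 in B6TC. No arrays of different lines overlapped. It was 1.99-fold above ZR-75-1 in B6TC (log2 difference 0.99, SE 0.045, limma adjusted p = 7.13e-09) and slightly below MDA-MB-231, at −0.20 (SE 0.045, limma adjusted p = 0.00257). Its other probe set, 1562028_at, stayed between 4.53 and 4.64 on all arrays and was not tested.

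CCND1, a D-type cyclin often amplified in breast cancer, was read by 2 tested probe sets that ordered the lines differently. At 208712_at its level was 10.46, 10.47 and 10.52 in ZR-75-1, 10.46, 10.47 and 10.50 in MDA-MB-231 and 10.01, 10.03 and 9.93 in B6TC. B6TC lay below both parental lines, which overlapped. The log2 difference of B6TC was −0.49 from MDA-MB-231 (SE 0.045, limma adjusted p = 8.26e-06) and −0.49 from ZR-75-1, and that of MDA-MB-231 from ZR-75-1 was −0.01 (95% interval −0.11 to 0.09, limma adjusted p = 0.89).
At 208711_s_at CCND1 was instead at 10.08, 10.23 and 10.06 in ZR-75-1, 9.31, 9.17 and 9.17 in MDA-MB-231 and 9.42, 9.46 and 9.39 in B6TC. Here the lines did not overlap and MDA-MB-231 was lowest. B6TC exceeded MDA-MB-231 by 0.21 (SE 0.060, limma adjusted p = 0.0124) and was below ZR-75-1, at −0.70 (limma adjusted p = 1.30e-06). MDA-MB-231 was also below ZR-75-1 at this probe set, at −0.91 (limma adjusted p = 1.57e-07). Both probe sets placed B6TC below ZR-75-1.

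RB1, whose phosphorylation ends G1, also had 2 tested probe sets that disagreed on the direction between B6TC and MDA-MB-231. At 203132_at its level was 8.61, 8.71 and 8.61 in ZR-75-1, 9.06, 9.07 and 9.02 in MDA-MB-231 and 9.33, 9.51 and 9.38 in B6TC. B6TC was highest without overlap, by 0.36 over MDA-MB-231 (SE 0.056, limma adjusted p = 3.05e-04) and by 0.77 over ZR-75-1 (limma adjusted p = 3.49e-07).
At 211540_s_at RB1 was instead at 6.16, 6.48 and 6.25 in ZR-75-1, 7.41, 7.46 and 7.38 in MDA-MB-231 and 6.63, 6.67 and 6.62 in B6TC. MDA-MB-231 was highest, and B6TC lay at −0.78 from it (SE 0.074, limma adjusted p = 1.05e-05) and 0.34 above ZR-75-1 (limma adjusted p = 0.00143). Both probe sets placed B6TC and MDA-MB-231 above ZR-75-1. When the probe sets of a gene were averaged, RB1 was below MDA-MB-231 in B6TC, at −0.21 (limma adjusted p = 0.00977).
Of the 5 G1 genes with several tested probe sets, CCND1 and RB1 had opposite calls in the comparison of B6TC with MDA-MB-231, as did 19.3% of all 4955 genes with several. None was called so in the comparisons with ZR-75-1, where 8.54% and 10.8% of all genes were, for B6TC and MDA-MB-231. Which stretch of the transcript each probe set reads was not analysed here. Control transcripts differed in their 3′ excess between these lines, as given above, and its part in these opposite calls was not tested.

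**Figure D2:**
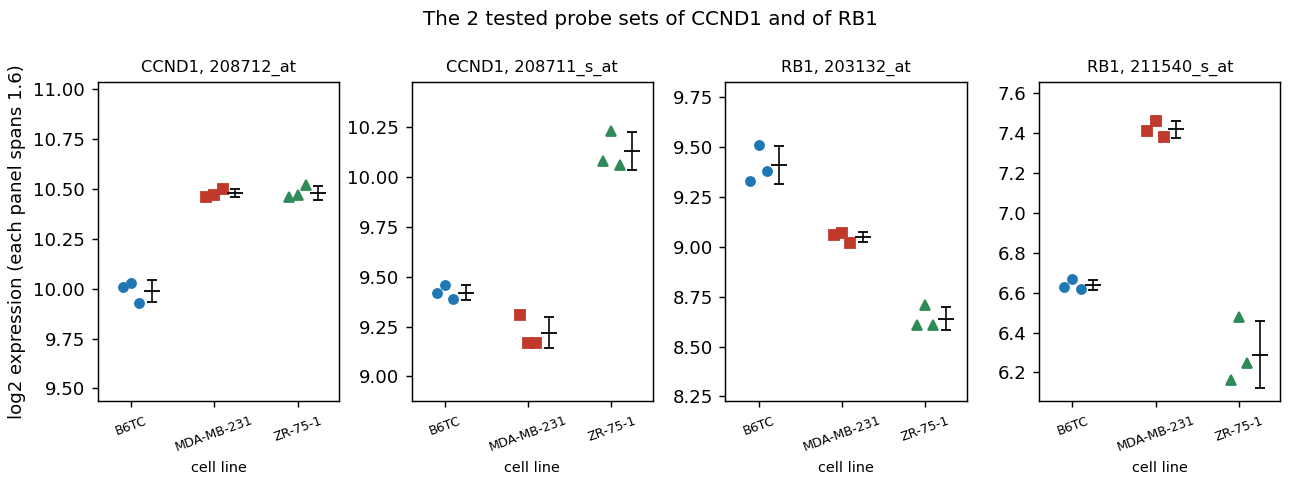
Log2 expression (y axis, each panel spanning 1.6) of CCND1 and RB1 at both tested probe sets of each gene, by cell line (x axis). Points are single arrays and black marks give mean and SD (n = 3 arrays), and B6TC lies below MDA-MB-231 at 208712_at and 211540_s_at but above it at 208711_s_at and 203132_at.

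CCNE2, an E-type cyclin, was lowest in B6TC at both of its probe sets. At 205034_at its level was 9.15, 9.16 and 9.24 in ZR-75-1, 8.37, 8.35 and 8.37 in MDA-MB-231 and 8.21, 8.20 and 8.12 in B6TC. At 211814_s_at the values were 8.10, 8.18 and 8.01 in ZR-75-1, 7.74, 7.69 and 7.76 in MDA-MB-231 and 6.86, 6.84 and 6.76 in B6TC. The lines did not overlap at either. B6TC was 2.01-fold below ZR-75-1 at 205034_at, −1.01 on the log2 scale (SE 0.047, limma adjusted p = 8.63e-09), and at −1.28 at 211814_s_at. The size of the difference from MDA-MB-231 depended on the probe set, at −0.19 (SE 0.047, limma adjusted p = 0.00507) and −0.91 (SE 0.055, limma adjusted p = 6.06e-07) in that order.
CCNE1, the other E-type cyclin, had the narrowest range of line means of the 9 tested genes, 0.25. At 213523_at its level was 7.69, 7.75 and 7.67 in ZR-75-1, 7.91, 7.92 and 7.84 in MDA-MB-231 and 7.84, 8.04 and 7.99 in B6TC. B6TC and MDA-MB-231 overlapped, and B6TC lay above ZR-75-1. The difference of 0.07 between B6TC and MDA-MB-231 did not pass limma (95% interval −0.06 to 0.19, adjusted p = 0.334), and B6TC exceeded ZR-75-1 by 0.25 (SE 0.057, limma adjusted p = 0.00189). The other probe set of CCNE1, 242105_at, stayed between 3.68 and 4.46.
CDK2, the kinase partner of the E-type cyclins, was lowest in B6TC at both tested probe sets. At 204252_at its level was 9.06, 9.09 and 9.13 in ZR-75-1, 8.84, 8.88 and 8.83 in MDA-MB-231 and 8.51, 8.42 and 8.57 in B6TC, and no lines overlapped. The log2 difference of B6TC was −0.35 from MDA-MB-231 (SE 0.048, limma adjusted p = 1.12e-04) and −0.59 from ZR-75-1 (limma adjusted p = 8.11e-07). At 211804_s_at the means were 8.10 ± 0.083 (SD, n = 3 arrays) in MDA-MB-231, 8.09 ± 0.054 in ZR-75-1 and 7.41 ± 0.07 in B6TC. There the parental lines overlapped, and B6TC lay at −0.68 and −0.67 from them (limma adjusted p = 4.96e-06 and 1.35e-06). The probe set 211803_at did not exceed 4.68 and was not tested.

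CDKN1B, which encodes the inhibitor p27, was the member that most favored ZR-75-1. At its only probe set, 209112_at, its level was 9.63, 9.82 and 9.93 in ZR-75-1, 8.20, 8.02 and 8.16 in MDA-MB-231 and 8.42, 8.44 and 8.35 in B6TC. The lines did not overlap. It was 2.62-fold below ZR-75-1 in B6TC, −1.39 on the log2 scale (SE 0.077, limma adjusted p = 3.48e-08), and 1.21-fold above MDA-MB-231, at 0.28 (SE 0.077, limma adjusted p = 0.00949). On a scale of 0 at the MDA-MB-231 mean and 1 at the ZR-75-1 mean, B6TC lay at 0.166 for CDKN1B, at 0.17 for CCND3 and at −0.0137 for CDK6. These genes were counted as at least 2-fold apart between the parental lines. Other genes lay elsewhere, such as CDK4 at −0.38 and CCNE2 at −0.231 (205034_at) and −2.48 (211814_s_at). RB1 lay outside the parental range at 203132_at (−0.875) and inside it at 211540_s_at (0.693).

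Over the 9 tested genes, B6TC differed from MDA-MB-231 at 7, with RB1 and CDKN1B higher and CCND1, CCND3, CCNE2, CDK2 and CDK4 lower by limma. Over all 10751 tested genes, 36.5% were higher in B6TC in this comparison and 28.5% lower. None of the 9 reached 2-fold, as did 3.75% of all genes, and their median absolute log2 difference of 0.20 compares with 0.25 over all genes. Against ZR-75-1 all 9 differed by limma, with CCND3, CCNE1, CDK6 and RB1 higher in B6TC and the other 5 lower. In that comparison 42.8% of all genes were higher and 41.6% lower. CDK6, CCNE2 and CDKN1B differed at least 2-fold, as did 31.6% of all genes. Between the parental lines 8 differed, with CCND3, CCNE1, CDK6 and RB1 higher in MDA-MB-231 and CCNE2, CDK2, CDK4 and CDKN1B lower, where 42.5% of all genes were higher and 41.9% lower. Here CDK6, CDKN1B and CCND3 reached 2-fold, as did 31.9% of all genes. Between the parental lines the counts depend on the probe set for CDK2, CCND1 and RB1. CDK2 did not differ between the parental lines at 211804_s_at (0.01, limma adjusted p = 0.874). CCND1, not counted, was called at 208711_s_at (−0.91, limma adjusted p = 1.57e-07). RB1, below 2-fold at 203132_at (0.41), was 2.18-fold higher in MDA-MB-231 at 211540_s_at (1.12, limma adjusted p = 1.51e-07). For B6TC against MDA-MB-231, the direction depends on the probe set for CCND1 and RB1, as given above. The comparisons share arrays, since each line enters 2 of them.
B6TC lay below both parental lines, with both tests passed, at 4 of the 9 genes, CCND1, CCNE2, CDK2 and CDK4, and at 14.6% of all tested genes. This includes the narrow call of CDK4 and the CCND1 probe set that its other probe set does not match. CCNE2 and CDK2 were below both at each of their tested probe sets. RB1 was above both, as were 20.1% of all genes, and its other probe set lay between them. CCND3 and CDKN1B lay between the parental lines, as did 21.8% of all genes.

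**Figure D3:**
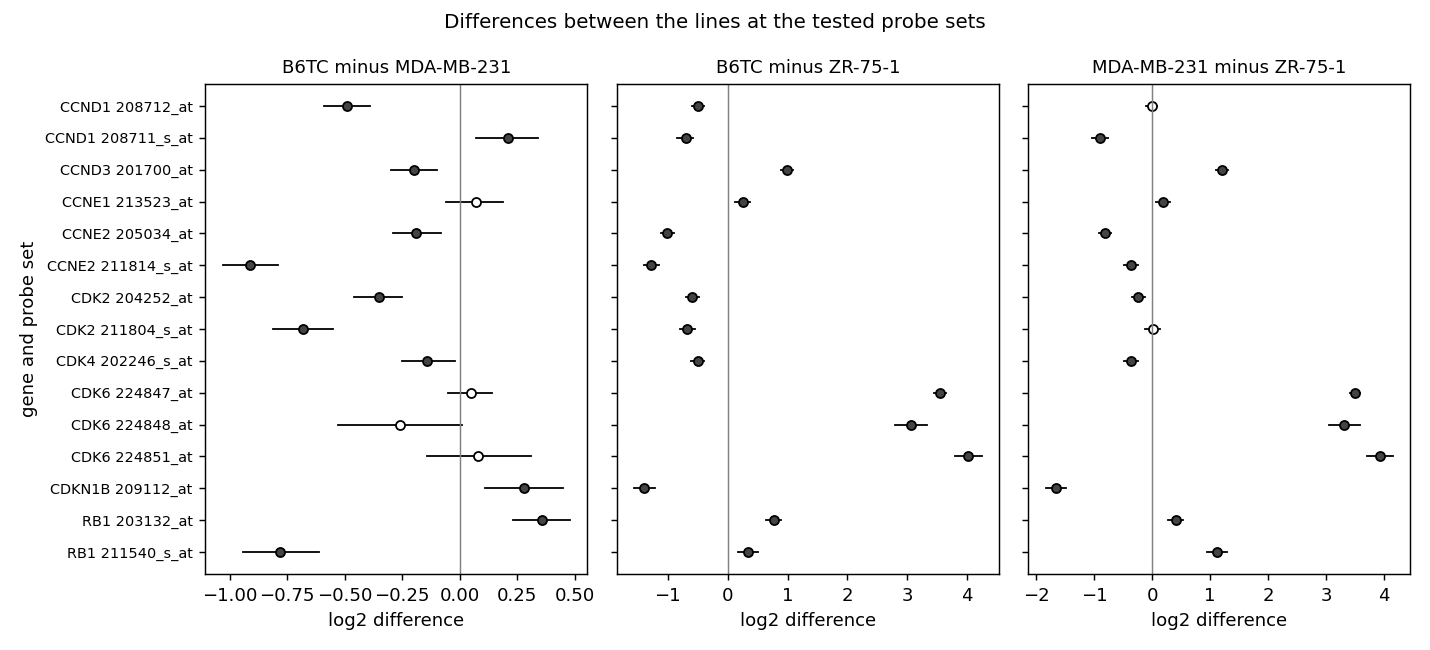
Log2 differences (x axis, with its own range in each panel) at the 15 tested probe sets of the G1 genes (y axis) in the 3 comparisons. Filled points passed limma, open points did not, and bars are 95% intervals. CDK6 stands apart in both comparisons with ZR-75-1, and the differences between B6TC and MDA-MB-231 run from −0.91 to 0.36.

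The genes around this core were taken from 5 lists, whose counts stand against 36.5% higher and 28.5% lower of all genes against MDA-MB-231, and 42.8% and 41.6% against ZR-75-1. Among the other CDK inhibitors 4 of 6 were tested. Of these 1 was higher, 2 were lower and 1 was not called in B6TC against MDA-MB-231, and 2 were higher and 2 lower against ZR-75-1, by limma. CDKN1C, which encodes p57, exceeded MDA-MB-231 by 0.71 and ZR-75-1 by 3.03 in B6TC. CDKN2D, an inhibitor of CDK4 and CDK6, differed by −0.34 and 1.52 in that order. CDKN1C and CDKN2D, the 2 counted as higher against ZR-75-1, passed the filter only through the arrays of B6TC and MDA-MB-231. Their means in ZR-75-1 were 4.55 and 5.61. CDKN1A, which encodes p21, favored ZR-75-1 as CDKN1B did, with means of 9.48 there, 8.26 in MDA-MB-231 and 8.25 in B6TC. CDKN2A was near the filter level in all lines, with means of 5.95 to 6.23. It was counted as lower in B6TC, whose arrays all lay below that level.
Of the 12 pocket protein and E2F genes, all tested, 5 were higher and 3 lower in B6TC against MDA-MB-231, and 5 higher and 4 lower against ZR-75-1, by limma, shares near those of all genes (36.5% and 28.5%, 42.8% and 41.6%). E2F3 and TFDP2, counted as higher against MDA-MB-231, and TFDP1, counted as higher against ZR-75-1, each had another probe set called the opposite way. RBL2, which encodes p130, the relative of RB1 in resting cells, exceeded MDA-MB-231 by 0.91 in B6TC (SE 0.052, limma adjusted p = 4.68e-07), and its difference of −0.06 from ZR-75-1 did not pass (limma adjusted p = 0.282). E2F5, a repressor E2F, exceeded both, by 0.65 and 1.72. E2F2, an activator E2F, was below both, at −0.49 and −2.92. It passed the filter only through the parental lines, and its B6TC mean was 5.86. E2F8, an atypical repressor, had its highest mean in ZR-75-1, 9.56 against 6.57 in MDA-MB-231 and 6.90 in B6TC. Its relative E2F7 had its lowest there, 7.91 against 9.46 and 9.32.
The list of CDK activation and cyclin turnover had 1 gene higher, 7 lower and 6 not called of 14 in B6TC against MDA-MB-231, and 4 higher, 6 lower and 4 not called against ZR-75-1, by limma. Of all genes 28.5% were lower against MDA-MB-231 and 41.6% against ZR-75-1, so the 6 of 14 stand near the share of all genes. CDC25A, counted as lower against MDA-MB-231, and SKP1 and CUL1, counted as lower against ZR-75-1, each had another probe set called the opposite way. CKS1B, a cofactor for the ubiquitination of p27, was below MDA-MB-231 in B6TC, at −0.81 (SE 0.045, limma adjusted p = 4.05e-07). CUL1, the scaffold of the same ligase, was at −0.49 and CDK7, the kinase that activates other CDKs, at −0.41. FBXO4, a ligase subunit for D-type cyclins, had a mean of 8.92 in ZR-75-1, 5.99 in MDA-MB-231 and 5.79 in B6TC. All its B6TC arrays lay below the filter level. CDC37, a chaperone of CDK4 and CDK6, and CCNH, the cyclin of CDK7, exceeded ZR-75-1 by 1.34 and 1.30 in B6TC. In MDA-MB-231 they exceeded it by 1.41 and 1.01.
Most of the DNA replication genes that E2F activates were lower in B6TC. Of the 12 tested, 9 passed limma as lower and 3 as higher against MDA-MB-231, and the median log2 difference was −0.41 where all genes had 0.036. Against ZR-75-1, 11 passed as lower and 1 as higher, and the median was −0.68 where all genes had −0.005. MDA-MB-231 was also lower than ZR-75-1 at most of them. There 8 passed as lower and 3 as higher, where 41.9% of all genes were lower and 42.5% higher. The median was −0.27 where all genes had −0.001. MCM3, MCM5 and MCM7, subunits of the replicative helicase, were at −0.94, −0.68 and −0.93 from MDA-MB-231 and at −0.14, −1.46 and −0.65 from ZR-75-1. MCM6, another subunit, was at −0.20 and −1.34. CDT1, which loads the helicase, was 0.40 above MDA-MB-231 and at −1.93 from ZR-75-1, and RRM2, a subunit of ribonucleotide reductase, at 0.11 and −0.76. MDA-MB-231 itself lay at −0.77 from ZR-75-1 at MCM5, −1.14 at MCM6, −2.33 at CDT1 and −0.87 at RRM2. At MCM3 and MCM7 it was above ZR-75-1, by 0.80 and 0.28. CDT1 and TYMS, the thymidylate synthase gene, both counted as higher against MDA-MB-231, each had another probe set called in the opposite direction. E2F3, TFDP1, TFDP2, CDC25A, SKP1 and TYMS lie outside the rule for naming genes and were chosen after their values were seen.
Among the later cyclins and their kinase, 3 of 4 tested genes were lower and 1 higher against MDA-MB-231, and 2 were lower and 1 higher against ZR-75-1, by limma, where 28.5% and 41.6% of all genes were lower. CCNA2, CCNB1 and CCNB2, cyclins of S phase and mitosis, were below MDA-MB-231 in B6TC, at −0.21, −0.35 and −0.48. Against ZR-75-1 CCNB2 was at −0.20 and CCNA2 at −0.11. CDK1, their kinase, was above both lines at its highest probe set, by 0.13 and 0.42, while another probe set was called in the opposite direction against MDA-MB-231. CCNA1 was not tested, with means of 3.27 to 3.64. The list medians were −0.28 against MDA-MB-231 and −0.11 against ZR-75-1.

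**Figure D4:**
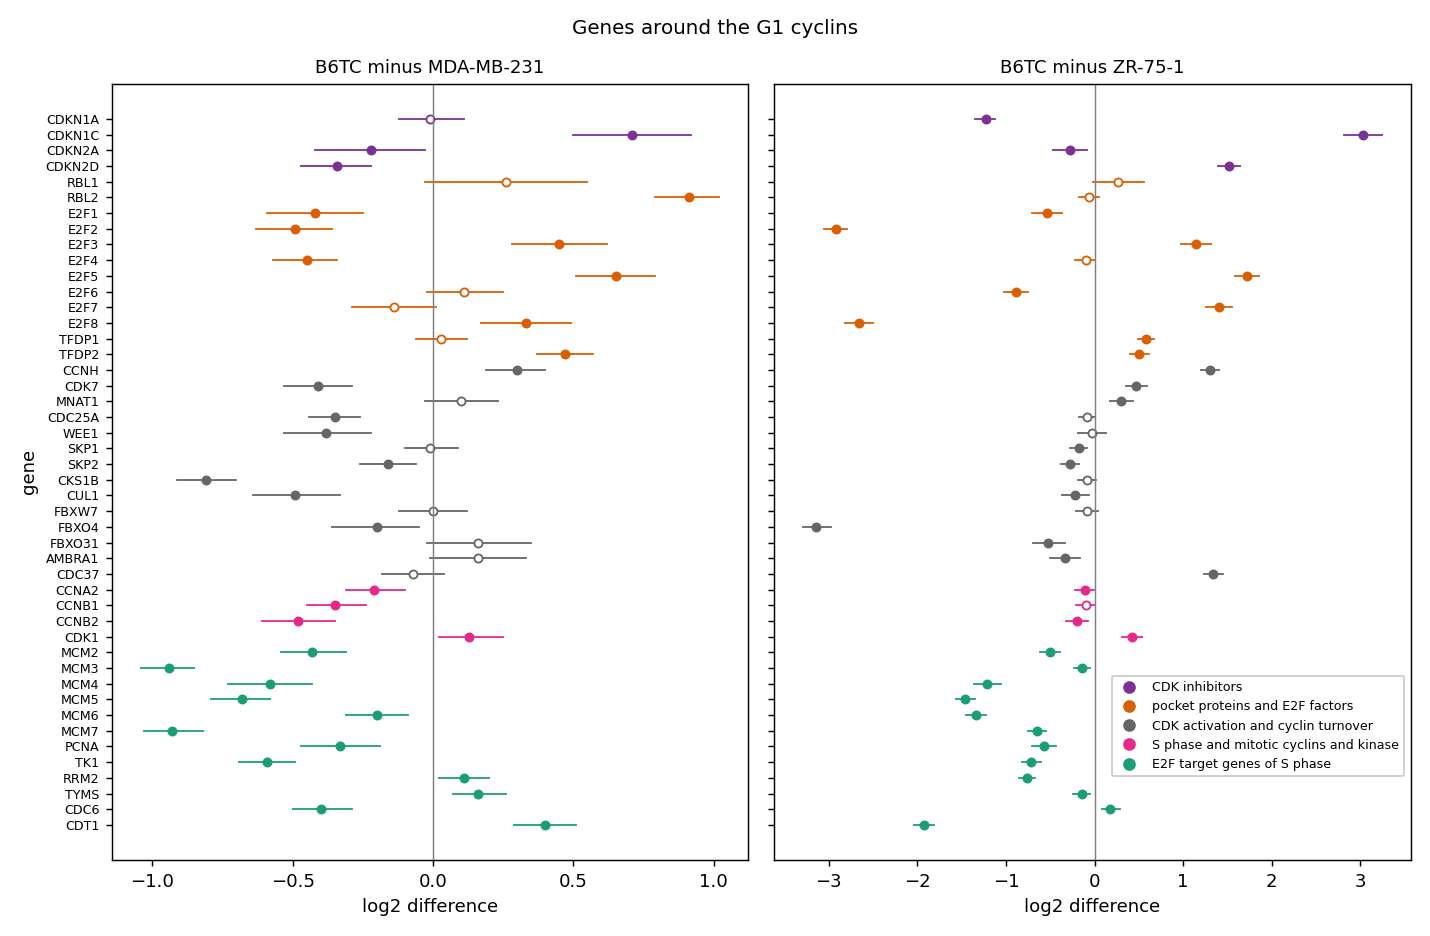
Log2 differences (x axis, with its own range in each panel) of the tested genes of 5 lists around the G1 cyclins (y axis, colored by list), for B6TC against MDA-MB-231 (left) and ZR-75-1 (right). Filled points passed limma, open points did not, and bars are 95% intervals. Most E2F target genes of S phase lie to the left of 0 in both panels, 9 and 11 of 12.

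The patterns most like those of CDK6 and CDKN1B, the members with the widest ranges of line means (3.55 and 1.67), were sought among 10742 other genes, as the smallest root mean square difference over the 9 arrays after centering each probe set. Nearest to CDK6 were TIMP3, an inhibitor of metalloproteinases, at 0.063, PRSS3, a trypsin gene, at 0.065, and SH3KBP1, an adaptor gene, at 0.085. The means of TIMP3 were 6.97 in ZR-75-1, 10.40 in MDA-MB-231 and 10.41 in B6TC. Nearest to CDKN1B were SKA2, a gene of the kinetochore, at 0.067, DTWD1 at 0.079 and NHSL1 at 0.080. The means of SKA2 were 11.73, 9.98 and 10.38 in the same order. With 3 lines the likeness rests on the order and spacing of 3 levels.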

How the data were processed

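Total RNA of 3 lines was hybridized to the Affymetrix Human Genome U133 Plus 2.0 Array, 3 arrays a line. The values deposited by the authors are log2 expression. The submitters' notes name Affymetrix Expression Console and RMA, whereas the methods name GCOS and GC-RMA. Which was used could not be settled here, and background correction and normalization were not repeated. For RNA purification the methods name RiboPure and the labels Trizol and RNeasy. Depth does not apply, and the number of arrays limits the precision.
Probe sets with 1 gene symbol (41091, with 1801 holding several and 11721 none) were renamed through their gene identifiers (RefSeq, GRCh38.p14), of which 54 had no entry. The 62 controls were left out. A probe set was tested at a log2 value of 6 or more on at least 3 arrays (21095 probe sets). One mean per line was fitted over all 9 arrays with limma 3.58.1 in R 4.3.3, with 6 residual and 3.68 prior degrees of freedom, and p-values were adjusted by Benjamini and Hochberg over all tested probe sets, separately for each comparison. The procedure was tested on simulated data. The G1 genes and the 5 lists around them (50 genes) were chosen with earlier results of these data known. Named were all probe sets of the G1 genes, the 3 called genes of each list with the largest difference in each comparison, and the 3 nearest patterns of 2 genes.
Alternatives covered the filter, regression, variances, normalization, arrays in the fit, probe sets, a replicate block, a fold minimum and each array left out. RefSeq promoter windows were searched with 4 motifs.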

Additional observations from a re-analysis of the deposited data

How the results depend on the processing

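By limma, B6TC differed from MDA-MB-231 at 7 of the G1 genes and from ZR-75-1 at 9, and the parental lines differed at 8. With a fold minimum of 2 these counts were 0, 3 and 3. Leaving out each array in turn gave 6 to 7, 9 to 9 and 8 to 8. Same-numbered arrays correlated at −0.102 to 0.176 in their deviations from the line means and 3 of 9 arrays matched their own number best. No pairing by number was seen, though 3 arrays a line are few for such a check. With the replicate block the counts were 7, 9 and 8. Of the differences of single genes under the alternatives, 487 kept their direction and their side of the threshold, 7 kept the direction and lost the call (all of CDK4 between B6TC and MDA-MB-231), 3 gained it and 7 changed sign, of which CDK2 between the parental lines also lost its call. The changes of sign were CCND1 between B6TC and MDA-MB-231, at 0.21 when the filter also required variation, which keeps its other probe set, CCND1 between the parental lines, at 0.024 with quantile normalization repeated and from −0.01968 to 0.012 over the fits that left out 1 array (0.00105 without MDA-MB-231 replicate 1 and 0.012 without ZR-75-1 replicate 3), CDK2 between the parental lines, at 0.010 when the filter also required variation, and, when probe sets were averaged, CDK6 at −0.044 and RB1 at −0.21 between B6TC and MDA-MB-231. CCND1 was called between the parental lines at −0.91 when the filter also required variation and at −0.46 when probe sets were averaged. Without a filter, CCND2 was above ZR-75-1 by 0.62 in B6TC and 0.57 in MDA-MB-231 (limma adjusted p = 0.00576 and 0.00927), at levels of at most 4.66. CDK4 has no value without probe sets named _s_at. Leaving out B6TC replicate 3 was an alternative chosen after seeing the data. It left the replication genes at 2 higher and 9 lower against MDA-MB-231 and 1 higher and 11 lower against ZR-75-1. The CDK inhibitors were then at 1 higher and 1 lower against MDA-MB-231. The later cyclins and CDK1 were at 0 higher and 3 lower against MDA-MB-231 and 1 higher and 1 lower against ZR-75-1. Against ZR-75-1 the pocket protein and E2F genes were at 6 higher and 4 lower. The genes of CDK activation and cyclin turnover were at 4 higher and 5 lower there.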
